A study of Mus musculus with 20 samples.

Results

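BALB/c is an albino inbred mouse strain, and its prostate was compared here with the prostates of C57BL/6J, 129X1/SvJ, FVB/NJ and DBA/2 mice. The BALB/c samples are the 4 of 20 pools that carry this strain name, and each of the other strains also gave 4 pools. Every pool held equal amounts of RNA of the dorsal, lateral, ventral and anterior lobes from 3 male mice aged 8 to 9 weeks, so that 12 mice stood behind each strain. The series' design text names the substrains BALB/cAnCrl (BALB/cAnNCrl in the study's methods) and DBA/2NCrl, which came from Charles River, whereas C57BL/6J, 129X1/SvJ and FVB/NJ mice came from the Jackson Laboratory. BALB/c therefore shared its supplier with DBA/2 alone. The labels name no treatment and no transgene. Amplified RNA of each pool was hybridized to a cDNA array of mouse prostate clones against 1 common reference made from all samples, and values are log2 ratios of sample over reference. A value of 0 thus stands for the level in the mixture of all strains. The sample carried Cy3 in pools 1 and 4 and Cy5 in pools 2 and 3 of BALB/c, and each other strain also held 2 pools per dye. C57BL/6J, FVB/NJ and DBA/2 had the layout of BALB/c, whereas 129X1/SvJ had Cy5 in pools 1 and 4 and Cy3 in pools 2 and 3.

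The mouse prostate consists of paired lobes whose luminal cells secrete proteins into the semen under the control of androgens. The seminal vesicles, which join the prostate at the urethra, secrete the clotting proteins of the copulatory plug, several of which are encoded side by side in the Svs cluster. Inbred strains are each fixed for their own set of alleles, so that a transcript can be at a different level in every tissue of a strain. Since whole glands were pooled, fewer cells of a type and less RNA per cell cannot be told apart in these values.

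Of 11552 array elements (spots), 11159 had enough values to be tested, and 10998 to 11251 elements had a value on each array. The median SD of an element among the 4 pools was 0.17 in BALB/c, against 0.18 in C57BL/6J, 0.30 in 129X1/SvJ, 0.17 in FVB/NJ and 0.15 in DBA/2 on the log2 scale. The 129X1/SvJ arrays thus had the widest spread, and counts without them are given below. The number of arrays limits the precision of all values. Of 12 measured markers of luminal epithelium, none passed the test given below for BALB/c, and the mean log2 ratio over them was -0.24 to 0.11 in BALB/c pools and -0.30 to 0.12 in the other pools. That test called 0.997% of all named genes higher and 1.19% lower, so that none among 12 is no measure of luminal content.

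BALB/c prostates differed from the mean of the other 4 strain means in 227 elements (2.03% of those tested), 102 of them higher (0.914%) and 125 lower (1.12%). The differences were tested with limma over the 20 arrays, and called at an adjusted p below 0.05 after Benjamini-Hochberg over all elements. The median difference of the elements called was 0.71 for those higher and -0.69 for those lower, while the median over all elements was 0.00. Among 5820 named genes, each represented by a single element, 58 were higher (0.997%) and 69 were lower (1.19%). Without the 129X1/SvJ arrays, 200 elements were higher and 209 lower.

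To find what was particular to BALB/c, a stricter test asked for a difference in 1 direction from each of the 4 other strains. It was passed by 5 elements (0.0448%), all lower in BALB/c, and by 0 elements higher in BALB/c. At an unadjusted p under 0.05, 57 elements were higher and 57 lower than in each strain. Without the 129X1/SvJ arrays, 14 elements were higher and 18 lower than in each of the 3 remaining strains. The 5 elements stand for Ly6e (both elements), Arl2bp, Rgs2 and an element with more than a single gene symbol, which is not named here. A description without a test is whether the 4 BALB/c pools all lay outside the 16 other pools, as was so for 63 elements (0.565%), 33 above and 30 below. Of the elements called against the mean, 54 lay outside in this way, 27 higher and 27 lower, and they stand for 16 named genes above and 20 below. BALB/c had the highest of the 5 strain means in 85 of the 102 elements called higher, and the lowest in 97 of the 125 called lower. These elements were called for their distance from the mean of the others, which makes an extreme BALB/c mean likely in advance. The counts of extreme means are therefore no test of what was particular to BALB/c.

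Single comparisons from the same fit found 272 elements between BALB/c and C57BL/6J (2.44%), of which 123 were higher and 149 lower in BALB/c. The comparison with 129X1/SvJ gave 368 (3.3%), that with FVB/NJ 223 (2.0%) and that with DBA/2 210 (1.88%). The order of these counts turned round with the setting. With arrays scaled to the same spread, 245 elements differed from 129X1/SvJ and 490 from DBA/2. With array weights, 201 and 849 did. The study's own pairwise counts for BALB/c, from another test and filter, were lowest with 129X1/Sv and highest with DBA/2. The counts thus do not rank the strains by nearness to BALB/c. All 4 comparisons share the BALB/c arrays. Of the elements called against the mean of the others, 10 higher and 13 lower passed all 4 of these comparisons when each was adjusted on its own.

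**Figure D1:**
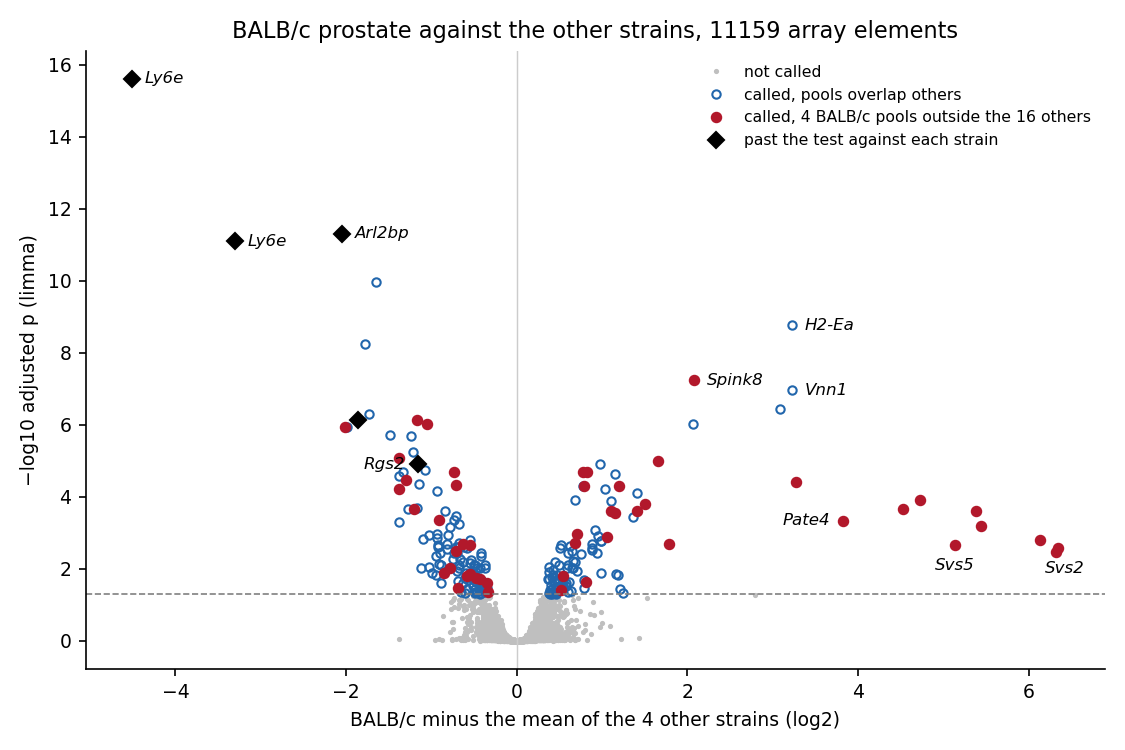
Each of 11159 array elements, with the difference between BALB/c and the mean of the 4 other strain means (log2) on the x axis and -log10 of limma's adjusted p on the y axis, where the dashed line marks an adjusted p of 0.05. Black diamonds are the 5 elements past the test against each strain, all to the left of 0, red points are other called elements whose 4 BALB/c pools lay outside the 16 other pools, and open circles are called elements whose pools overlapped.

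Ly6e, which encodes a GPI-anchored surface protein of the Ly6 family and is induced by interferon in many cells, had the lowest p-value of all elements, in its second element. The BALB/c pools had log2 ratios of -2.69, -3.15, -3.37 and -2.98, against -0.32 (lowest), 0.13 (median) and 1.23 (highest) in the 16 other pools. The other element of Ly6e gave -4.07, -4.21, -4.47 and -4.08 in BALB/c, against -0.21 to 1.09 in the other pools. No BALB/c pool came within reach of any other pool in either element. The difference from the mean of the others was -3.30 ± 0.14 (standard error), or 9.84-fold lower, in the first (limma adjusted p = 8.13e-12) and -4.51 ± 0.11, or 22.7-fold lower, in the second (limma adjusted p = 2.48e-16). The first differed by -3.97 from DBA/2, the strain with the highest mean, and by -3.05 from FVB/NJ, the nearest. The test against each strain gave an adjusted p of 2.51e-09 and 8.64e-14 in limma. The first element also differed by dye over all arrays (limma adjusted p = 0.00118), yet the BALB/c mean was -2.83 in Cy3 and -3.26 in Cy5.

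Arl2bp encodes a binding partner of the small GTPase ARL2 and is found at the base of cilia and in mitochondria. Its log2 ratios were -1.82, -1.92, -1.52 and -1.87 in BALB/c pools, against 0.02 (lowest), 0.28 (median) and 0.51 (highest) in the other pools. The other strains lay close together, with means of 0.36 ± 0.13 in C57BL/6J, 0.37 ± 0.08 in 129X1/SvJ, 0.15 ± 0.10 in FVB/NJ and 0.17 ± 0.13 in DBA/2 (SD, n = 4 each). Only the BALB/c pools departed from this common level. The difference was -2.04 ± 0.08, or 4.13-fold lower (limma adjusted p = 5e-12, and 1.05e-09 against each strain).

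Rgs2 encodes a GTPase-activating protein that ends signalling of Gq-coupled receptors. Its log2 ratios were -1.08, -1.27, -0.88 and -0.72 in BALB/c pools, against -0.37 (lowest), 0.22 (median) and 0.55 (highest) in the other pools. Again no pool overlapped, and the nearest strain was 129X1/SvJ, 1.96-fold above BALB/c. The difference was -1.16 ± 0.13, or 2.23-fold lower (limma adjusted p = 1.27e-05, and 0.0218 against each strain). The call against each strain was lost without BALB/c pool 1 (limma adjusted p = 0.129) or 2 (0.166), without 129X1/SvJ pool 1, 3 or 4 (0.0545, 0.0711 and 0.0537) and without C57BL/6J pool 2 (0.0506), whereas that against the mean was kept. It was also lost with the pool number as a replicate block (limma adjusted p = 0.0739). The element with several symbols gave -1.55, -1.34, -1.67 and -2.18 in BALB/c pools, against -0.23 to 1.02 in the others, with a difference of -1.86 ± 0.17 (limma adjusted p = 7.29e-07).

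Further genes were low in BALB/c with no overlap of pools but did not pass the test against each strain, and these were chosen after their values were seen. Cbs, cystathionine beta-synthase, which opens the route from homocysteine to cysteine, had log2 ratios of -0.77, -0.91, -1.32 and -0.99 in BALB/c, against -0.62 (lowest), 0.29 (median) and 0.58 (highest) in the other pools. Its nearest strain was DBA/2, at -0.43 ± 0.23 (SD, n = 4). The difference from the mean was -1.17 ± 0.10 (limma adjusted p = 7.29e-07), and that from DBA/2 alone was -0.57 (limma adjusted p = 0.0267). The small nucleolar RNA host gene Snhg11 was at -2.17, -2.59, -1.94 and -2.0 in BALB/c, against -1.43 to 1.64 elsewhere. Its 4 single differences ran from -1.26 against FVB/NJ to -3.73 against DBA/2, each past its own test, while the joint test missed the threshold (limma adjusted p = 0.0724). Without the 129X1/SvJ arrays it passed that test, at an adjusted p of 0.0004 in limma.

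Several secreted proteins were in this group. 9530003J23Rik had log2 ratios of -1.35, -1.25, -1.55 and -1.44 in BALB/c pools, against -0.64 (lowest), -0.16 (median) and 1.25 (highest) in the other pools. The difference was -1.38 ± 0.15 (limma adjusted p = 8.65e-06), and its other element gave -1.38 as well. Spink5, an inhibitor of serine proteases known from the skin barrier, was at -1.04, -1.31, -1.0 and -1.09 in BALB/c, against -0.66 to 0.64 elsewhere. It differed by -1.21 ± 0.17 (limma adjusted p = 0.000213). The difference from FVB/NJ alone was -0.83 (limma adjusted p = 0.0536). Smgc, a submandibular gland secretory protein, was at -1.58, -1.21, -1.37 and -1.05 in BALB/c, against -0.88 to 1.5 elsewhere. Only C57BL/6J and FVB/NJ were past the single comparisons for Smgc, and the means of -0.78 ± 0.10 in 129X1/SvJ and -0.76 ± 0.16 in DBA/2 (SD, n = 4 each) left differences of -0.52 and -0.54.

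Glb1l3, a galactosidase-like gene, and Bzw2, a translation regulator, had smaller but steady differences. Glb1l3 ran from -0.97 to -0.60 in BALB/c pools and from -0.36 to 0.79 in the others, with a difference of -0.92 ± 0.14 (limma adjusted p = 0.000447). Bzw2 ran from -0.69 to -0.56 in BALB/c, and from -0.20 to 0.44 in the others. Its difference was -0.74 ± 0.09 (limma adjusted p = 2.04e-05), but another element of Bzw2 gave -0.15 (limma adjusted p = 0.876). Ltbp4, which binds latent TGF-beta in the matrix, Anxa1, a phospholipid-binding protein with anti-inflammatory action, Gata3, a transcription factor of luminal epithelia, Zbtb20 and Ndrg2 differed by -0.79, -0.55, -0.48, -0.85 and -0.68. These 5 genes lost their call without single BALB/c pools, Ltbp4 without pool 2 or 3 (limma adjusted p up to 0.0706), Anxa1 without pool 1 or 2 (0.0976), Gata3 without pool 1, 2 or 4 (0.108), Zbtb20 without pool 1 or 4 (0.0983) and Ndrg2 without any of the 4 (0.147). Ndrg2 also lost it without FVB/NJ pool 2 or 3, DBA/2 pool 2 or 4 (up to 0.0541) or all DBA/2 arrays (0.0516). A further element of Gata3 gave -0.04, further elements of Zbtb20 gave -0.77 and -0.08, and another of Ltbp4 gave -0.47, none of them called. Of 2 other Ndrg2 elements 1 was called (-0.71) and 1, which may be a repeated spot, was not (-0.67). Single elements of Itpripl2 (-1.06), Ina (-0.71), Tnfrsf21 (-0.63), Tcf7l2 (-0.43) and Septin11 (-0.33) were also called with no overlap of pools, but they are not the elements that represent these genes. Those of Tcf7l2 and Septin11 lost their call without any single BALB/c pool (limma adjusted p up to 0.117 and 0.218), and that of Septin11 without most other arrays. The Ina element is numbered next to the second element of Ly6e on the array, and whether position contributed was not tested.

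**Figure D2:**
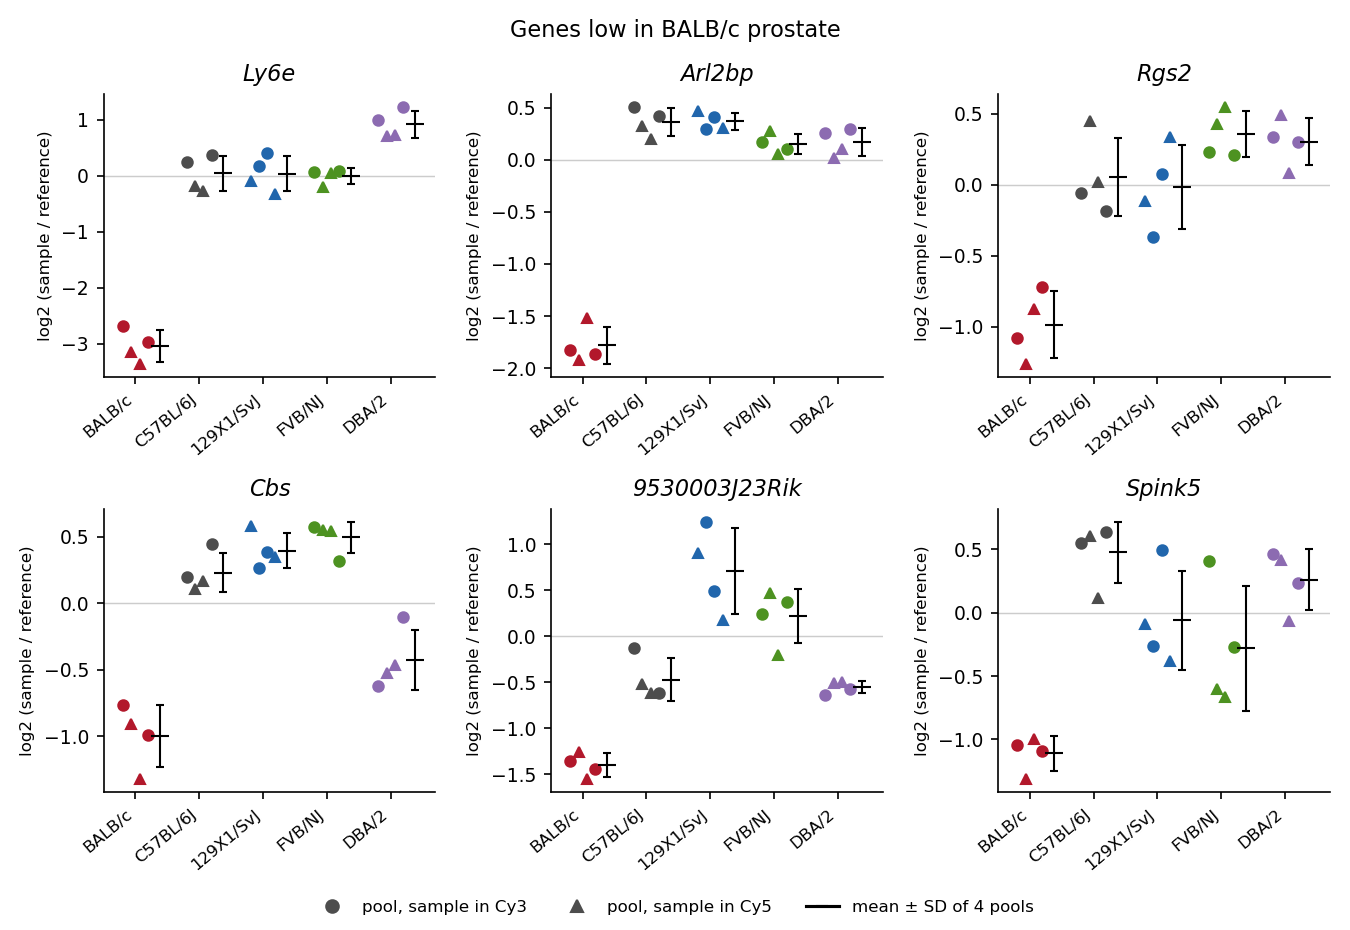
Log2 ratios of sample over reference on the y axis for 6 genes that were low in BALB/c, by strain on the x axis, with 1 point per pool (circles, sample in Cy3, triangles, sample in Cy5) and the mean ± SD of 4 pools beside them. The BALB/c pools lie below all 16 others in each panel, with the widest gap for Ly6e, between -2.69 in BALB/c and -0.32 in another strain.

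The largest differences of all were in genes of the seminal vesicle secretion, which were high in BALB/c. Svs2, a structural protein of the copulatory plug, had log2 ratios of 2.56, 1.64, 1.39 and 1.73 in BALB/c pools, against -7.63 (lowest), -5.54 (median) and 0.12 (highest) in the 16 other pools. All BALB/c pools were above the reference level, whereas the other pools spread over a range far wider than the BALB/c one. The strain means were 1.83 ± 0.51 in BALB/c, -4.78 ± 2.48 in C57BL/6J, -5.39 ± 2.95 in 129X1/SvJ, -2.08 ± 3.22 in FVB/NJ and -5.74 ± 1.55 in DBA/2 (SD, n = 4 each). Svs2 was 80.3-fold higher in BALB/c than in the mean of the others (6.33 ± 1.17, limma adjusted p = 0.0035), and its 4 further elements gave 5.38 to 6.35. Against FVB/NJ alone the difference was 3.91 and did not pass (limma adjusted p = 0.305), and 3 of the 4 FVB/NJ pools lay between -1.26 and 0.12.

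Svs5 was at 2.11, 1.71, 1.23 and 1.94 in BALB/c pools, against -5.99 (lowest), -4.27 (median) and -0.05 (highest) elsewhere. Pate4, a small secreted protein of the seminal vesicle, was at 2.30, 1.48, 1.02 and 1.41 in BALB/c, against -4.05 (lowest), -2.54 (median) and 0.15 (highest) elsewhere. Both had the same order of strains at the top, with BALB/c above FVB/NJ. Svs5 was higher by 5.13 ± 0.90 (limma adjusted p = 0.00225) and Pate4 by 3.82 ± 0.58 (limma adjusted p = 0.000472). The comparison with FVB/NJ alone gave 3.23 for Svs5 (limma adjusted p = 0.238) and 2.76 for Pate4 (limma adjusted p = 0.0584).

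Other members of the group did not pass the test over all 20 arrays. Svs4 was at 1.34, 1.24, 0.79 and 1.58 in BALB/c pools, against -3.72 (lowest), -2.02 (median) and 1.38 (highest) elsewhere. Its difference of 2.80 ± 0.73 missed the threshold (limma adjusted p = 0.0532) and the pools overlapped those of C57BL/6J and 129X1/SvJ. Svs4 was called without the 129X1/SvJ arrays (limma adjusted p = 0.0221), with a dye term (0.0495) and in 4 of 20 fits that left out a single array, but in none that left out a BALB/c pool. Svs6 differed by 0.66 ± 0.54 (limma adjusted p = 0.859), Svs3b by 0.20 ± 0.60 (0.985) and Svs1, an amine oxidase-like protein, by -0.05 ± 0.18 (0.992). Of the 7 measured seminal vesicle genes, 3 were called higher and 0 lower, beside 0.997% higher and 1.19% lower over all named genes. The median difference of the 7 genes was 2.80, beside 0.01 over all named genes. The mean log2 ratio over the 7 genes was 0.44 to 1.11 in BALB/c pools and -3.11 to 0.33 in the other pools. The share of seminal vesicle tissue in each pool was not measured, and its part in these differences cannot be told apart from a change within the prostate.

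Svs2, Svs4, Svs6 and Svs5 lie in a cluster on chromosome 2, and the promoters of the called members Svs2 and Svs5 are shown with that of Svs6, which did not pass. The sequences are those of RefSeq (build GRCm38.p6, the C57BL/6J reference and not the BALB/c allele) and span 250 bases before to 50 after the start. Svs2 is at chr2:164238292-164238591 on the minus strand, Svs5 at chr2:164332515-164332814 and Svs6 at chr2:164316501-164316800 on the plus strand. Capitals mark the hexamer TGTTCT, on either strand, which is the core of the androgen response element.
Svs2: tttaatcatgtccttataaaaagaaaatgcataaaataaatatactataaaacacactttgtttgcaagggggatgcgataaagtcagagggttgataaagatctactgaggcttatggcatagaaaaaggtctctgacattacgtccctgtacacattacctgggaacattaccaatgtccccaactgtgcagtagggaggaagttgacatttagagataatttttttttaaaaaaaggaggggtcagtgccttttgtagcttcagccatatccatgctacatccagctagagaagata
Svs5: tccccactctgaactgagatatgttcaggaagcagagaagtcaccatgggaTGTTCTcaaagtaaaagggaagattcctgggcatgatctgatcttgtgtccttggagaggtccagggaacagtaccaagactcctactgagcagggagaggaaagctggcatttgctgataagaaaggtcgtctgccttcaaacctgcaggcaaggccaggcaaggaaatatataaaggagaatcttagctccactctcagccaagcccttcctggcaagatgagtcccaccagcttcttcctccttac
Svs6: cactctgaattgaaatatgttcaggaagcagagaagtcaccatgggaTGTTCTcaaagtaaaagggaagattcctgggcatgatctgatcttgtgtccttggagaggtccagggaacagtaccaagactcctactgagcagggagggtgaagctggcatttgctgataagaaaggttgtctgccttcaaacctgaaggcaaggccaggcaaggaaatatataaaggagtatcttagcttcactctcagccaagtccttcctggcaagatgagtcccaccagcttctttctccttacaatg
The Svs5 and Svs6 promoters were identical at 285 of 296 aligned bases (96.3%) and held the hexamer once each, at the same place of the alignment. The Svs2 and Svs4 promoters did not hold it. Of all 32851 promoters of this length, 19.0% held the hexamer, so that its presence is common. Their differences between BALB/c and the mean were 5.13 for Svs5 and 0.66 for Svs6. How far the array elements of such near copies share signal was not tested.

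**Figure D3:**
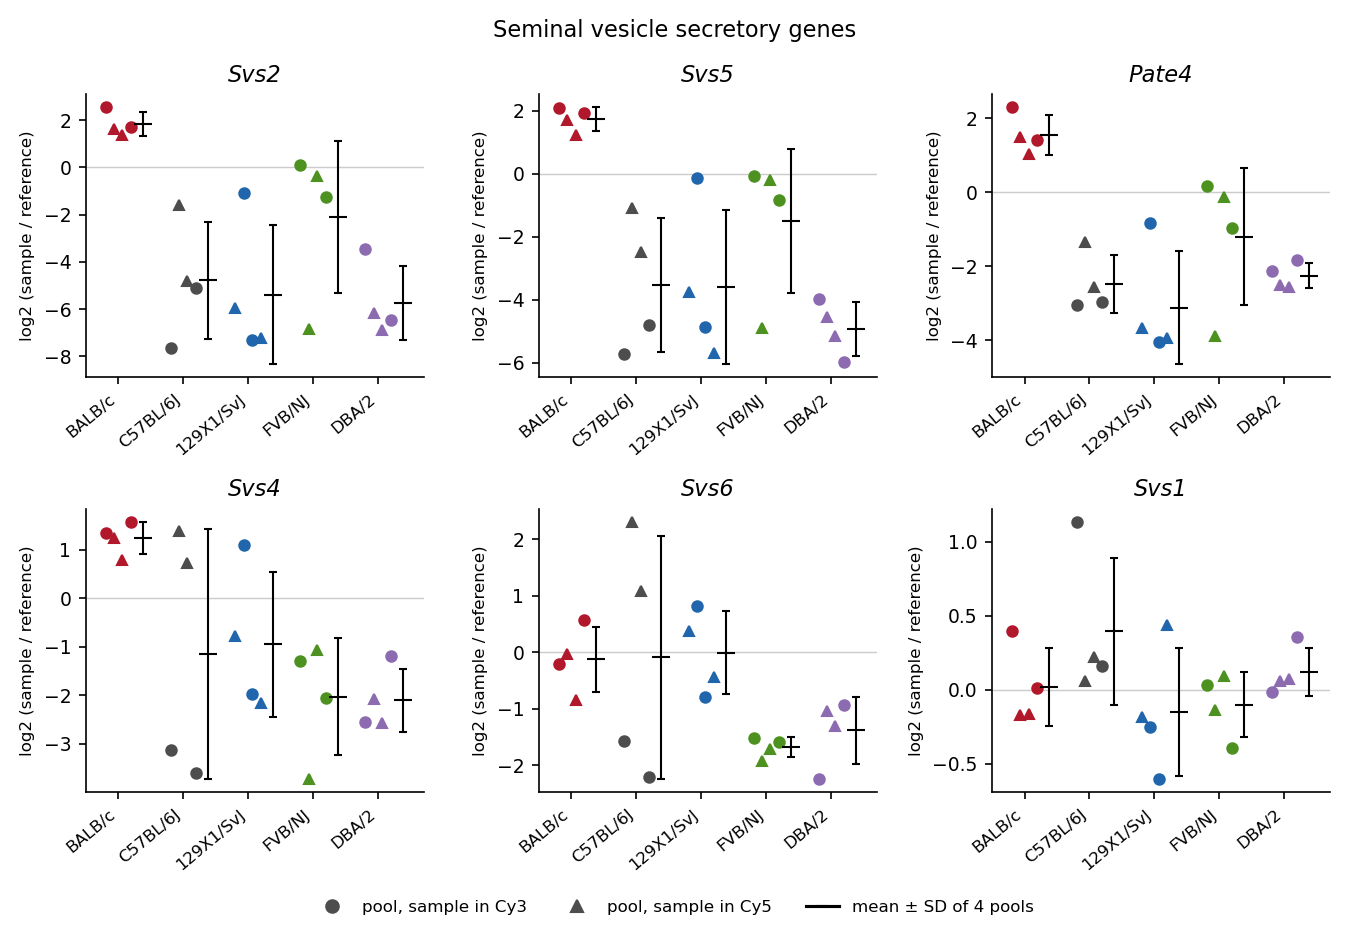
Log2 ratios of sample over reference on the y axis for 6 seminal vesicle secretory genes, by strain on the x axis, with 1 point per pool (circles, sample in Cy3, triangles, sample in Cy5) and the mean ± SD of 4 pools beside them. The BALB/c pools lie above all others for Svs2, Svs5 and Pate4 and among the others for Svs4, Svs6 and Svs1, and 1 FVB/NJ pool lies far below the other 3 in the upper row.

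Elements of 2 further genes followed the Svs2 pattern. The element of Smpd1, the lysosomal acid sphingomyelinase, was at 2.25, 1.61, 1.19 and 1.93 in BALB/c pools, against -4.74 to -0.24 elsewhere, and the array numbers it directly beside the Svs5 element. The element that represents Tshz2, a zinc finger transcription factor, was at 1.98, 1.65, 1.44 and 1.60 in BALB/c, against -5.01 to -0.29 elsewhere. The 2 other elements of Tshz2 differed by 0.04 and 0.11 only (limma adjusted p = 0.981 and 0.935). A further element without a single gene symbol was at 1.53, 1.11, 1.42 and 1.29 in BALB/c, against -2.97 to -0.03 elsewhere. Whether these elements measure the genes they are assigned to was not tested.

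Emb was also high in BALB/c. It encodes embigin, a membrane glycoprotein that accompanies monocarboxylate transporters. Its log2 ratios were 0.79, 1.48, 0.67 and 0.80 in BALB/c pools, against -1.13 (lowest), -0.43 (median) and 0.28 (highest) in the other pools. All 4 other strain means lay between -0.89 and -0.33, below every BALB/c pool. The difference was 1.5 ± 0.21, or 2.83-fold higher (limma adjusted p = 0.000162), and another element, which may be a repeated spot, gave 1.41. The single differences ran from 1.26 to 1.82, all past their own tests, and the joint test gave an adjusted p of 0.146 in limma. Without the 129X1/SvJ arrays Emb passed the joint test too (limma adjusted p = 0.0045).

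Plau, the urokinase-type plasminogen activator, was at 1.48, 0.53, 0.26 and 0.72 in BALB/c pools, against -0.95 (lowest), -0.24 (median) and 0.17 (highest) elsewhere. BALB/c pool 3 came close to the highest other pool, and the nearest strain was FVB/NJ. The difference was 1.06 ± 0.18 (limma adjusted p = 0.00129), and another element, which may be a repeated spot, gave 1.20. Plaur, which encodes the receptor of this protease, differed by 0.26 (limma adjusted p = 0.407). Spink8, a protease inhibitor of the Kazal type, was at 1.11, 1.12, 0.94 and 1.25 in BALB/c, against -2.58 (lowest), -0.86 (median) and 0.82 (highest) elsewhere. The difference was 2.08 ± 0.16 (limma adjusted p = 5.75e-08), while DBA/2, at 0.71 ± 0.10 (SD, n = 4), lay only 0.39 below BALB/c (limma adjusted p = 0.537).

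Gstm2, a mu-class glutathione transferase, was at 0.48, 0.61, 0.57 and 0.35 in BALB/c pools, against -0.65 (lowest), -0.21 (median) and 0.17 (highest) elsewhere. Tspan6, a tetraspanin, was at 0.44, 0.58, 0.87 and 0.61 in BALB/c, against -0.43 to 0.26 elsewhere. Both were higher in BALB/c in all 4 single comparisons, with differences from the mean of 0.70 ± 0.11 (limma adjusted p = 0.00107) and 0.77 ± 0.09 (2.12e-05). Tcte3, a dynein light chain gene, was also past all 4 and differed by 0.97 ± 0.11 (limma adjusted p = 1.27e-05), with a lowest BALB/c pool of 0.49 and a highest other pool of 0.49, so that its pools met. Gpx8, a peroxidase of the endoplasmic reticulum, ran from 0.40 to 0.52 in BALB/c and from -0.93 to 0.32 elsewhere, and differed by 0.68 ± 0.12 (limma adjusted p = 0.00191). Ces1e, a carboxylesterase, and Tceanc2 differed by 0.79 and 0.82 with no overlap of pools, and BALB/c lay nearest to C57BL/6J in both. Without the DBA/2 arrays Tceanc2 was at 0.45, still called. Lyz2, the lysozyme of macrophages, Hspe1, a mitochondrial chaperonin, and Smad4, which carries TGF-beta signals, differed by 0.81, 0.54 and 0.53. Lyz2 lost its call without any of the 4 BALB/c pools (limma adjusted p up to 0.138), Hspe1 without BALB/c pool 3 or 4 (up to 0.123) and Smad4 without any of the 4 BALB/c pools (up to 0.192) or 7 pools of other strains. Without the DBA/2 arrays Hspe1 (limma adjusted p = 0.0812) and Smad4 (0.168) lost it too. Another element of Smad4 gave 0.19 and was not called (limma adjusted p = 0.652).

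**Figure D4:**
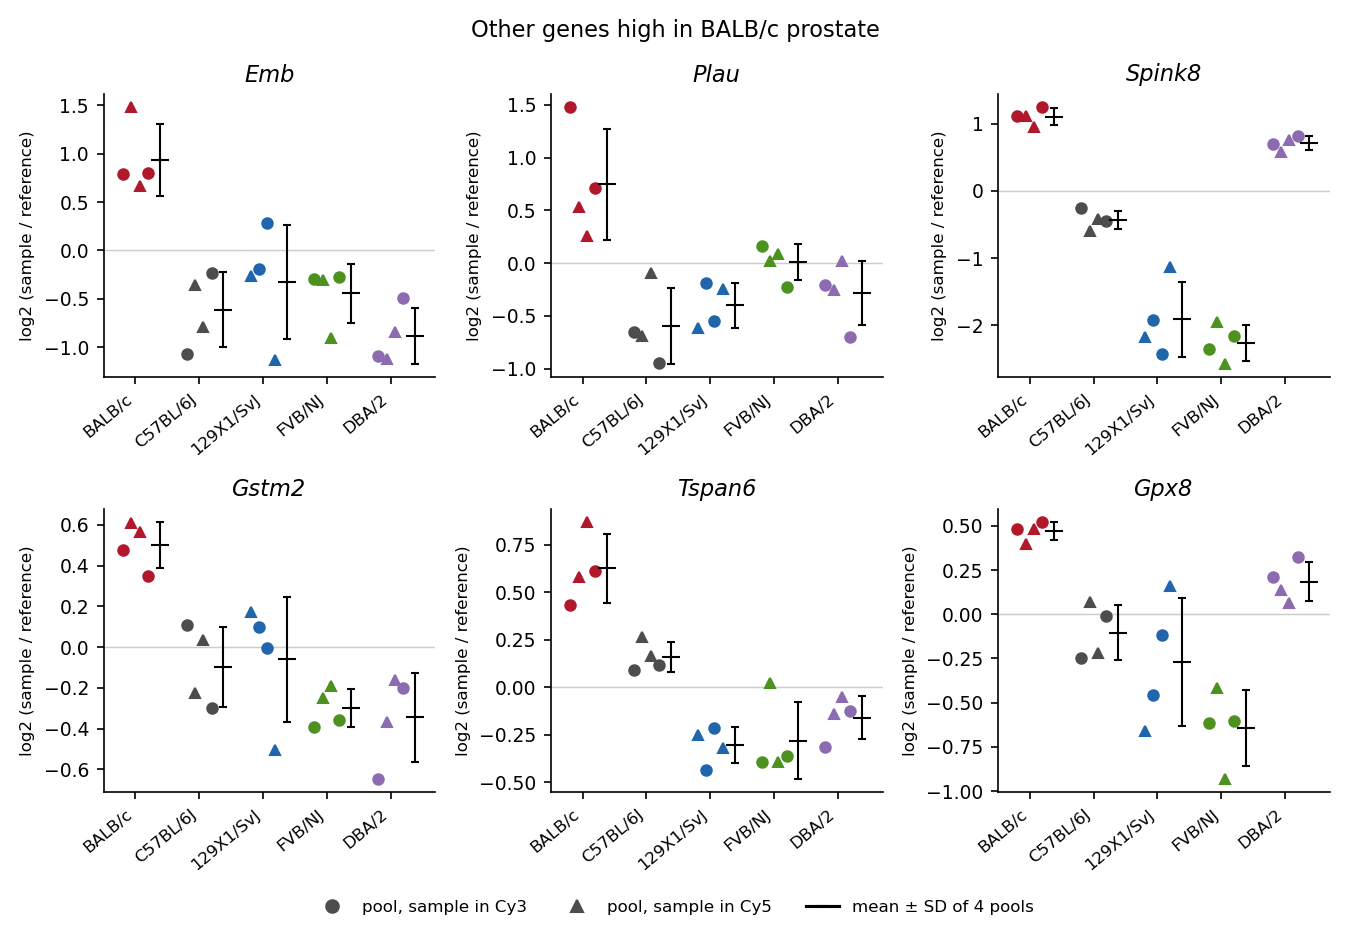
Log2 ratios of sample over reference on the y axis for 6 genes that were high in BALB/c, by strain on the x axis, with 1 point per pool (circles, sample in Cy3, triangles, sample in Cy5) and the mean ± SD of 4 pools beside them. The BALB/c pools lie above all 16 others in each panel, closely for Plau (lowest BALB/c pool 0.26, highest other pool 0.17) and for Spink8, where DBA/2 reached 0.82.

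Other large differences from the mean were not shown to be particular to BALB/c, because another strain had the same or a near level. A comparison with that strain that did not pass does not show equal levels. H2-Ea encodes the alpha chain of the MHC class II molecule E, which mice of the H2 b and q haplotypes do not make, and BALB/c and DBA/2 both carry the d haplotype. Its log2 ratios were 1.04, 1.34, 1.01 and 1.30 in BALB/c pools, against a mean of 1.19 ± 0.40 in DBA/2 and of -3.56 ± 0.46 in C57BL/6J, -3.27 ± 0.31 in 129X1/SvJ and -2.57 ± 0.45 in FVB/NJ (SD, n = 4 each). BALB/c differed from the mean by 3.22 but from DBA/2 by -0.02 (limma adjusted p = 1.73e-09 and 1). For the MHC genes as a family the study reported no correlation of expression with known H2 haplotypes, and haplotype was not tested here. Vnn1, a pantetheinase, was at 0.98, 0.83, 1.75 and 1.95 in BALB/c pools. FVB/NJ was at 0.94 ± 0.75 and the other 3 strains at -2.53 or below. The Vnn1 difference was 3.23 from the mean and 0.44 from FVB/NJ (limma adjusted p = 1.11e-07 and 0.845).

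The same held among low genes. Mgst1, a microsomal glutathione transferase, averaged -2.18 ± 0.15 in BALB/c, -2.11 ± 0.50 in C57BL/6J and -1.60 ± 0.11 in DBA/2, against 0.85 ± 0.25 in 129X1/SvJ and 1.08 ± 0.22 in FVB/NJ (SD, n = 4 each). Mis12, a kinetochore protein, and Rab6a, a GTPase of Golgi traffic, had BALB/c means of -2.02 and -1.36. Those of FVB/NJ were close (-1.99 and -1.35), and those of 129X1/SvJ were below BALB/c in both. C57BL/6J and DBA/2 were above 0 in both. Rab6a differed from the mean by -0.99 and lost its call without BALB/c pool 1 or 4 (limma adjusted p up to 0.074). It was at -0.53 without the DBA/2 arrays (limma adjusted p = 0.579) and at -1.56 without the 129X1/SvJ arrays. Mis12 was at -0.92 without the DBA/2 arrays in place of -1.49, still called. Sprr2a1, a cornified envelope protein, averaged -2.13 ± 0.26 in BALB/c and -1.68 ± 0.26 in FVB/NJ, against -0.13 ± 0.53 to 1.12 ± 0.36 in the other strains (SD, n = 4 each). H2-Q1, an MHC class I gene, was at -0.90 ± 0.29 in BALB/c and -0.57 ± 0.32 in DBA/2, against 0.36 to 0.52 in the other strains. Rnase1, a secreted ribonuclease, differed by -1.24 from the mean, but from 129X1/SvJ by only -0.36 (limma adjusted p = 0.274). Adgre5, an adhesion receptor of leukocytes, differed by 1.10, with the 129X1/SvJ mean slightly above that of BALB/c. Without the 129X1/SvJ arrays both passed the test against each remaining strain.

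**Figure D5:**
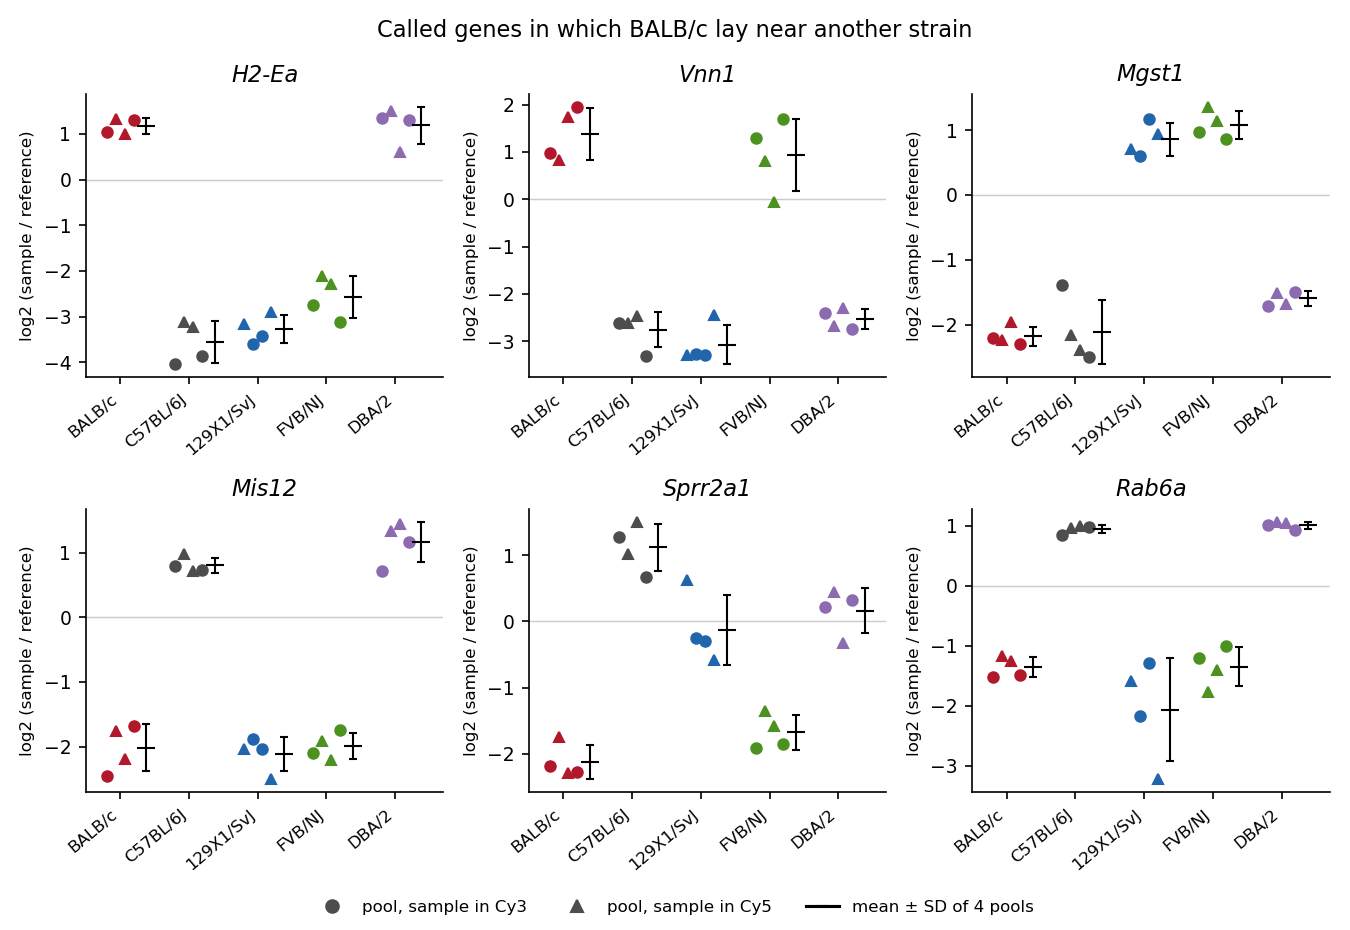
Log2 ratios of sample over reference on the y axis for 6 called genes in which BALB/c lay near another strain, by strain on the x axis, with 1 point per pool (circles, sample in Cy3, triangles, sample in Cy5) and the mean ± SD of 4 pools beside them. In each panel at least 1 other strain has pools among those of BALB/c or next to them, for example DBA/2 for H2-Ea (means 1.17 in BALB/c and 1.19 in DBA/2).

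Lists of genes were then read for their members called against the mean of the other strains, beside the shares of 0.997% higher and 1.19% lower over all named genes. Of 20 measured prostate secretory proteins, 2 were higher (Spink8 and Pate14) and 5 lower (9530003J23Rik, Smgc, Spink5, Azgp1 and Wfdc2), with a median difference of 0.06. Pate14 differed by 1.18 with C57BL/6J above BALB/c, and it lost its call without BALB/c pool 2 or 3 (limma adjusted p up to 0.107) or without the DBA/2 arrays, at 0.42 (0.837). Azgp1, a lipid-mobilizing glycoprotein, differed by -0.94 and Wfdc2, a protease inhibitor of the whey acidic protein family, by -0.71, a call lost without the DBA/2 arrays (limma adjusted p = 0.0642). The androgen-dependent secretory genes Pbsn, Sbp and Tgm4 had differences of 0.50, -0.47 and 0.35, which did not pass (limma adjusted p = 0.537, 0.23 and 0.883). None of 13 measured genes of the androgen receptor and its targets was called, with a median of 0.00.

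Of 6 genes of the Ly6 and uPAR superfamily, 0 were higher and 2 lower, Ly6e and Psca, the prostate stem cell antigen. Psca differed by -1.03, but its mean of -1.16 ± 0.39 in BALB/c was above that of -1.28 ± 0.35 in C57BL/6J (SD, n = 4 each), and further elements of Psca gave -0.58 and -0.54 without a call. Psca lost its call without BALB/c pool 3 (limma adjusted p = 0.0797). None of 15 interferon-stimulated genes was called (median 0.06), beside the low level of Ly6e. Of 23 genes of glutathione and oxidant defence, 2 were higher (Gstm2 and Gpx8) and 2 lower (Mgst1 and Gsto1). Of 16 genes of pantetheine, cytochrome P450 and conjugation, 1 was higher (Vnn1) and 3 were lower, Cmbl (-0.82), Cyp2b10 (-0.75) and the retinal dehydrogenase Aldh1a1 (-0.55). Without the 129X1/SvJ arrays Cmbl was at -0.34 and lost its call (limma adjusted p = 0.239), and Gsto1 was at -0.36 in place of -0.72. Cyp2b10 was then at -1.38 and passed the test against each remaining strain (limma adjusted p = 0.000768). The 129X1/SvJ mean of Cyp2b10 was below that of BALB/c, so that BALB/c was not the lowest strain. Without the DBA/2 arrays Gsto1 was at -1.14, and Cyp2b10, at -0.54, lost its call (limma adjusted p = 0.157). The DBA/2 mean of Gsto1 was below that of BALB/c. Of 41 cell cycle genes, Anln, an actin-binding protein of cytokinesis, was higher by 0.60, while Mis12 and the securin gene Pttg1 (-0.51) were lower. The 129X1/SvJ means of Mis12 and Pttg1 were below those of BALB/c. Sms, spermine synthase, was higher by 0.65 among 8 polyamine genes and Slc39a8, a zinc and manganese transporter, by 0.61 among 20 transporters. Of 48 genes of small GTPases and vesicle traffic, Arl2bp and Rab6a were lower. Without single BALB/c pools the calls were lost for Aldh1a1 (pool 1, 3 or 4, limma adjusted p up to 0.079), Anln (pool 4, 0.0537), Pttg1 (pool 1 or 4, 0.156) and Slc39a8 (pool 3 or 4, 0.165). Without the DBA/2 arrays they were lost for Anln (0.0642) and Slc39a8 (0.106). None of 36 ER chaperones (median 0.16), 51 respiratory chain genes (0.07) or 44 ribosomal protein genes (-0.04) was called.

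Few markers of other cell types were called, beside 0.997% higher and 1.19% lower over all named genes. Lists this short would hold few called genes at those shares, so the counts do not measure how much of a cell type was present. None of 10 smooth muscle genes (median -0.04), 6 endothelial genes (0.02), 6 adipose genes (0.18), 4 nerve genes (-0.08) or 3 basal genes (-0.16) was called. Of 18 fibroblast and matrix genes, the collagen gene Col6a3 was higher (0.75) and the calcification inhibitor gene Mgp lower (-0.89), with a median of 0.00 over the list. Another element of Col6a3 gave 0.68 without a call, and Mgp lost its call without BALB/c pool 4 (limma adjusted p = 0.0578). Of 5 leukocyte markers, Lyz2 was higher, while Adgre1, Cd52, Fcer1g and Itgam were not called. Skeletal muscle actin, Acta1, was lower (-0.65) as the single called gene of 10 muscle markers, and its call was lost on leaving out any of 17 single arrays, all BALB/c pools among them (limma adjusted p up to 0.226), or the DBA/2 arrays (0.403). Further elements of Acta1 gave -0.65 and -0.39 without a call. Of 2 measured genes of urothelium and squamous epithelium, Sprr2a1 was lower (-1.99, limma adjusted p = 1.2e-06), as described above, and the urothelial marker Upk1b differed by -0.47 (limma adjusted p = 0.0681). The 1 measured epididymal gene, Defb1, differed by 0.26 (limma adjusted p = 0.853).

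Among the 4 BALB/c pools an SD above 1 was found in 8 named genes, against 29 in C57BL/6J, 223 in 129X1/SvJ, 15 in FVB/NJ and 8 in DBA/2. The 5 widest were Sox17, Pgls, Sntb2, Jund and Slc13a4. Jund, an AP-1 transcription factor, was at 0.59, 0.20, 0.12 and 3.10, and pool 4 alone stood out. Pgls, an enzyme of the pentose phosphate pathway, was at -0.68, 0.42, 0.69 and -3.06, and Slc13a4, a sulphate transporter, at -0.69, -0.02, 0.27 and -2.75, so that pool 4 was lowest in both. For these 2 genes the Cy5 pools lay above the Cy3 pools, as they did for Sox17, with a value in only 2 pools, and Sntb2, with 3. Over all 20 arrays 1778 of 11159 elements differed by dye (15.9%), and so did 25 of the 227 elements called for BALB/c (11.0%). Across elements, which are not independent replicates, the BALB/c arrays correlated at a median of 0.43 with the same dye and 0.24 with the opposite dye. With the opposite dye the values ran from -0.04, between pools 1 and 3, to 0.36, between pools 1 and 2.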

How the data were processed

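Pools of prostate RNA from 5 strains, 4 per strain, were hybridized on 2-colour cDNA arrays. The authors scanned them with GenePix, subtracted the median background of each spot, set spots that did not exceed background to missing and applied print-tip loess within arrays. What they deposited are log2 ratios, sample over reference, and 2.89% of them were missing. The authors' removal of low-abundance spots was not repeated, and spot intensities were left aside. An element was tested if no more than 3 values were missing and every strain had 2 or more (11159 elements, with 393 left out). Genes were named from the array's annotation through 8050 elements with a single symbol, of which 7880 matched the GRCm38.p6 gene table by gene ID, and 672 elements with several symbols and 2830 without annotation were not named. A gene with several elements (1635 genes) is represented by that with the fewest missing values, and some elements may be repeats of the same clone.

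Strain means were fitted with limma 3.58.1 in R 4.3.3 on all 20 arrays. BALB/c was compared with the average of the 4 other strain means, and with each strain by the largest of the 4 p-values where all differences had 1 direction. All p-values are two-sided and adjusted by Benjamini-Hochberg over all elements tested. No dye term was used, since each strain held 2 pools per dye. The pools were separate groups of mice. Simulated data of 11159 elements held independent normal noise scaled to the spread of the strains. They had no differences among the other strains and none by dye. Of 100 simulated elements that differed in BALB/c by 1 on the log2 scale, 93 were found against the mean and 71 against each strain. Of 100 that differed by 2, 97 and 96 were found, and 4.04% of calls against the mean were false. These shares belong to that simpler setting and were not measured on the real arrays. Sequences of promoters are those of RefSeq, which had an entry for 49 of 61 genes looked up.

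The comparison, the gene lists and the tests were chosen with earlier results of these data known. The rule for naming genes took those past the test against each strain with no overlap of pools, list members called against the mean, defining markers and the 5 genes with the largest SD among BALB/c pools. Other genes were named after their values were seen, for having no overlap of pools or for a level near that of another strain. Alternatives were other filters, normalizations, dye and pool terms, array weights, other estimates of the spread, subsets of arrays and leaving out each array in turn. Pool numbers were not taken to pair the samples across strains.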

Additional observations from a re-analysis of the deposited data

Results flagged for a closer look

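Within the 4 BALB/c pools, 72 genes and elements named above were examined for a pool whose gap to the nearest other pool was above Dixon's critical value as a share of the whole range, and 3 were found. Chance alone gives about 1 in 20 such groups. Pool 2 was the highest for Emb, at 1.48, with the next pool at 0.80, and for Ces1e, at 0.65, with the next pool at 0.50. Pool 1 was the lowest for Rnase1, at -1.34, with the next pool at -1.13.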

How the results depend on the processing

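Counts of called elements moved by over 1.5 times with the scaling, the weighting and the arrays used. The 102 elements higher in BALB/c than in the mean became 178 with arrays scaled to the same spread, 183 with quantile normalization, 158 with a dye term, 208 with array weights, 200 without the 129X1/SvJ arrays, 51 with the Cy3 arrays and 22 with the Cy5 arrays. The 125 lower became 191, 207, 201, 209, 58 and 32 with scaling, quantile normalization, array weights, no 129X1/SvJ arrays, Cy3 arrays and Cy5 arrays. Against each strain, 0 elements were higher in BALB/c, but 5 were with quantile normalization, 1 with array weights, 14 without the 129X1/SvJ arrays and 5 without the DBA/2 arrays, and the 5 lower became 13, 18 and 9 with quantile normalization, without 129X1/SvJ and without DBA/2, and 3 with the Cy5 arrays. Without 129X1/SvJ or DBA/2 a strain less had to be passed, and the arrays of a single dye are 10 in number; the other causes were not tested.

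Against C57BL/6J, 272 elements became 534 with array weights, 472 without the 129X1/SvJ arrays, 134 with Cy3 and 48 with Cy5. Against 129X1/SvJ, 368 became 245 with scaling, 201 with array weights and 129 with Cy5. Against FVB/NJ, 223 became 371 with scaling, 402 with quantile normalization, 457 with array weights, 405 without the 129X1/SvJ arrays, 108 with Cy3 and 35 with Cy5. Against DBA/2, 210 became 490, 518, 322, 849, 394, 54 and 25 with scaling, quantile normalization, a dye term, array weights, no 129X1/SvJ arrays, Cy3 and Cy5.

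With single arrays left out, the counts ran from 65 to 155 (higher than the mean), 87 to 173 (lower than the mean), 0 to 1 (higher than each strain) and 4 to 6 (lower than each strain). The single comparisons ran from 207 to 380 with C57BL/6J, 259 to 458 with 129X1/SvJ, 162 to 335 with FVB/NJ and 127 to 327 with DBA/2. The highest counts against the mean, 155 and 173, came without 129X1/SvJ pool 4, and the lowest, 65 and 87, without BALB/c pool 2 and BALB/c pool 1.

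Pools of the same number were not taken as pairs across strains, since the labels name no litter, batch or day behind the numbers and their deviations did not all correlate above 0.1 (40 pairs, median 0.21, lowest -0.34). Number and dye were partly confounded. The deviations of pools with the same dye correlated at a median of 0.30 with the same number (24 pairs, lowest 0.082) and 0.21 with another number, and those with opposite dyes at -0.18 and -0.27. With the pool number as a replicate block, 108 elements were higher and 131 lower than the mean, 1 was higher than each strain and 4 were lower, since Rgs2 lost that call (limma adjusted p = 0.0739). Of the named elements only that of Septin11 lost its call against the mean.

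Among named genes, reversed directions were found only for Svs6 (-0.11 with the Cy5 arrays), Svs3b (-0.030 without DBA/2, -0.39 with Cy5, and -0.040 to 0.44 with single arrays left out) and Svs1 (0.15 with Cy3, and -0.17 to 0.018 with single arrays left out), none of them called. Of 67 genes and elements called among 72, calls against the mean were lost for 41 with the Cy5 arrays, 24 with the Cy3 arrays, 11 without the DBA/2 arrays, 5 with elements averaged by gene, 4 with the unmoderated statistic, 1 without the 129X1/SvJ arrays and up to 15 with a single array left out (BALB/c pool 4). Svs4 was the single gene to gain a call. Signal over background was not used here.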
